A study of Saccharomyces cerevisiae S288C with 8 samples.

Results

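Endogenous and overexpressed Cse4 were compared within the cdc7-7 strain. The comparison uses the list of ChIP-seq peaks of the sample labelled cdc7-7 endogenous Cse4 and that of the sample labelled cdc7-7 OE Cse4. Every peak of both lists was taken, 183 with endogenous Cse4 and 2203 with overexpressed Cse4, which are 2386 of the 3243 peaks in the 4 lists of the series. Peaks sharing 1 bp or more with a centromere of the annotation count as CEN peaks, which gave 16 CEN and 167 non-CEN peaks with endogenous Cse4, and 15 CEN and 2188 non-CEN peaks with overexpressed Cse4.

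The series holds ChIP and input libraries of wild type and cdc7-7 cells, and asked where Cse4 lies when it is expressed from its own promoter or in excess. The endogenous cdc7-7 cells carried the genotype CSE4-HA cdc7-7 by the labels and grew in glucose. The overexpressing cdc7-7 cells carried GAL-CSE4-FLAG cdc7-7, with the galactose-inducible copy integrated in the genome, and were in raffinose and galactose for 1.75 hr. All cells were in logarithmic phase at the permissive temperature of the cdc7-7 allele, and all ChIP libraries used an anti-FLAG M2 gel, while the paper calls the endogenous protein Flag-Cse4. Expression level, medium and, by the labels, the tag changed together between the groups, so their parts cannot be told apart. Each condition has 1 ChIP library called against its own input library, so no difference below can be set against a replicate error and no test was run.

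Cse4 is the budding yeast form of CENP-A, the histone H3 variant that replaces H3 in the centromeric nucleosome and on which the kinetochore is built. The budding yeast centromere is a point centromere, in which a short CDEI element bound by Cbf1 and a CDEIII element bound by the CBF3 complex flank an AT-rich CDEII stretch that the Cse4 nucleosome occupies. Cdc7 is the catalytic subunit of the Dbf4-dependent kinase, best known for firing replication origins, and cdc7-7 is a temperature-sensitive allele of its gene. Cse4 made in excess is normally kept out of the chromosome arms by ubiquitin-mediated proteolysis, in which the E3 ligase Psh1 takes part.

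The sequences of 4 centromeres show the site on which the CEN peaks are placed. They are CEN13, CEN14, CEN9 and CEN12. CEN13 had the strongest CEN peak of both lists, and CEN14 the overexpressed summit furthest from the centromere. CEN9 had the weakest endogenous CEN peak, and at CEN12 no overexpressed peak reached the annotated centromere. Each is written from CDEI to CDEIII on build R64 of the reference genome (chrXIII:268031-268149, chrXIV:628758-628875 and chrIX:355629-355745 on the plus strand, chrXII:150828-150947 on the minus strand). Capitals mark CDEI at the left end and the 25 bases of CDEIII at the right end.
CEN13: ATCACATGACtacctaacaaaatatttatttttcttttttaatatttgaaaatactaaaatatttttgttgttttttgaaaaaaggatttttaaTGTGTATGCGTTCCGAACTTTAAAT
CEN14: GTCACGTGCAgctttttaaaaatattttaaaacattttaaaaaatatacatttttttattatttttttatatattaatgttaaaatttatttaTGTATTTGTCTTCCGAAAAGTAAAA
CEN9: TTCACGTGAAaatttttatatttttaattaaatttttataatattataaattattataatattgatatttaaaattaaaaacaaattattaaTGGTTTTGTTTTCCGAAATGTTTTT
CEN12: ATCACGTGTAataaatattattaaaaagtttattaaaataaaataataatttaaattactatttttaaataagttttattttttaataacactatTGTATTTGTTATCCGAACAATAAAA
All 16 CDEIII stretches hold the letters CCGAA. CDEII was 86.9% A and T in CEN13, 94.0% in CEN14, 97.6% in CEN9 and 94.1% in CEN12, while the genome as a whole is 61.7% A and T.

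The fold enrichment in the lists is the authors' ratio of the ChIP pileup to the background expected from the input, both with a pseudocount of 1, at the summit of each peak. The pileup and the background, in fragments, were solved from this ratio and the Poisson p of the same peak. The median background at the CEN peaks was 76.2 fragments with endogenous and 146 with overexpressed Cse4, and their ratio over the shared centromeres, 1.90, is taken here as the ratio of the depths of the libraries. The lowest fold enrichment of a peak was 1.38 with endogenous and 1.10 with overexpressed Cse4. The 167 endogenous non-CEN peaks cover 0.754% of the genome and the 2188 overexpressed ones 10.2%. Their widths had medians of 415 and 478 bp.

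At the centromeres, the peak of overexpressed Cse4 was weaker than that of endogenous Cse4 at each of the 15 centromeres with a peak in both lists, and its summit lay outside the centromere at 14 of them. The summit with endogenous Cse4 lay inside the annotated centromere at 11 of 16. The width of the peaks changed in both directions, with a median ratio of overexpressed to endogenous width of 1.06 and single ratios from 0.669 at CEN7 to 1.92 at CEN9. At CEN12 no overexpressed peak reached the annotated centromere, though an overexpressed peak beside it overlapped the endogenous CEN12 peak.

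The fold enrichment was higher with endogenous Cse4 by a factor between 1.76 and 4.92, with a median of 3.68 over the 15 shared centromeres. CEN13 was the strongest in both lists, at 20.3 with endogenous and 5.75 with overexpressed Cse4. CEN4 followed in both lists, at 18.3 and 4.79. CEN9, the weakest endogenous CEN peak, fell least, from 4.70 to 2.67, and CEN8 and CEN14 were among the centromeres that fell most, from 10.4 to 2.11 and from 13.7 to 2.86. The fall was seen in the fragments counted in each library as well as in the ratio. The pileup at CEN13 was 1910 fragments over a background of 93.2 with endogenous Cse4, and 917 over 159 in the deeper overexpressed library. Only CEN9 had the higher pileup with overexpressed Cse4, with 344 fragments endogenous and 362 overexpressed. The number of fragments above background was higher with endogenous Cse4 by a median factor of 2.87. Fragments are counted within each library, and those at a centromere are a share of that library. Whether less Cse4 lay at the centromeres was thus not tested. For overexpressed Cse4 in the mutant, the paper reports a raised general background over the genome. It reads this from CEN peaks with less signal relative to noise.

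**Figure D1:**
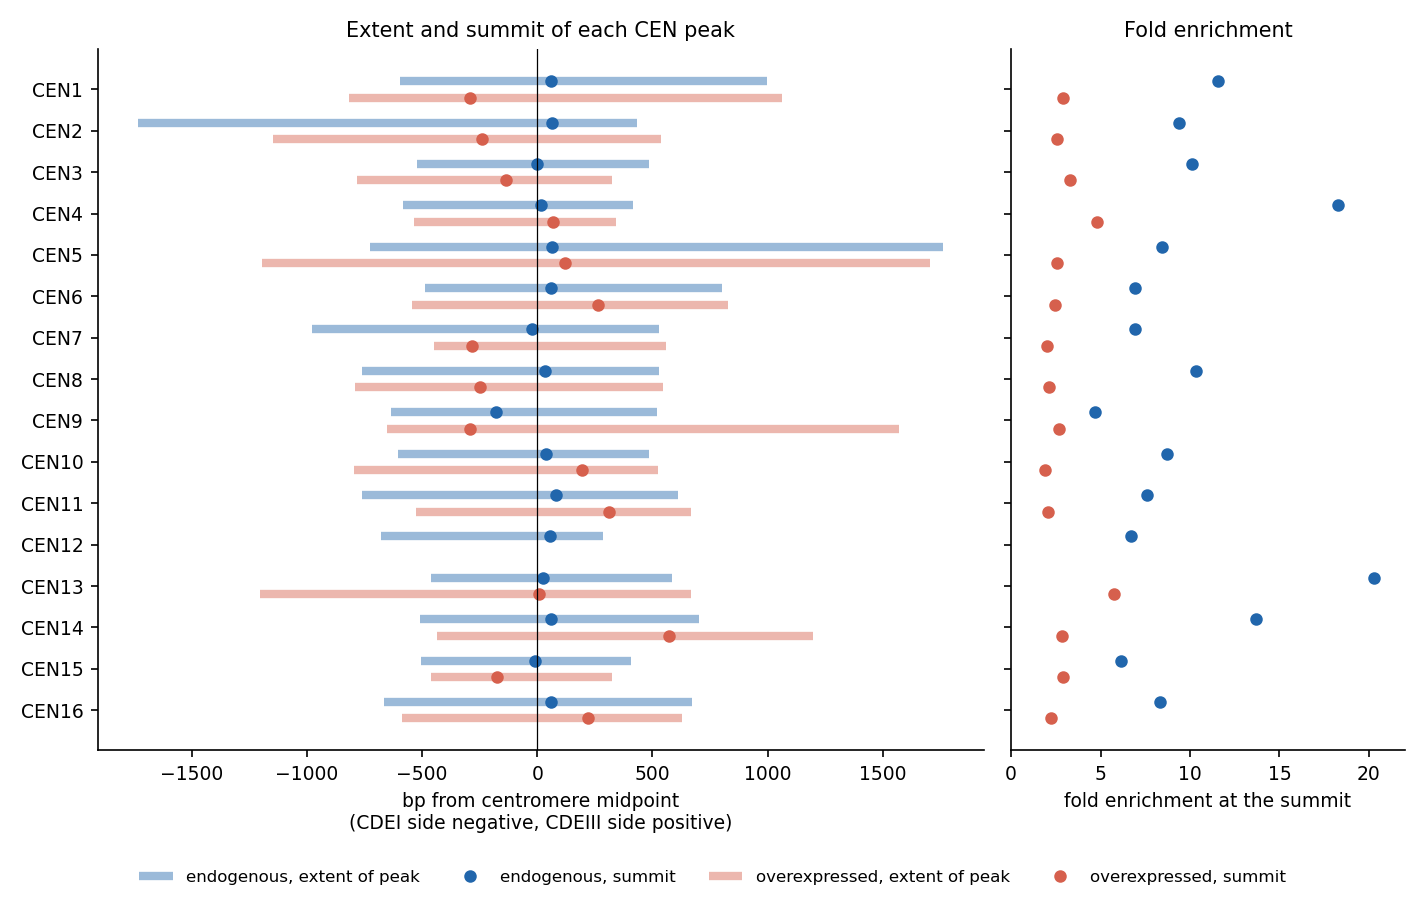
The left panel shows the extent (line) and summit (point) of the peak at each of the 16 centromeres in bp from the centromere midpoint, and the right panel its fold enrichment, with endogenous Cse4 in blue and overexpressed Cse4 in red, 1 library each. Blue summits lie within 100 bp of the midpoint except at CEN9, and red ones lie on either side of it, up to 570.5 bp away at CEN14, and every red fold enrichment is below the blue one of the same centromere.

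The median distance of the summit from the centromere midpoint was 57.5 bp with endogenous and 240 bp with overexpressed Cse4 over the 15 shared centromeres. It was larger with overexpressed Cse4 at 14 of the 15. The exception was CEN13, where it was 26 bp with endogenous and 9 bp with overexpressed Cse4, and CEN4 was next, with 16 and 69 bp. These are the 2 strongest CEN peaks of the overexpressed list, and the only overexpressed summits within 100 bp of the midpoint. The largest shift between lists, 512 bp, was at CEN14, where the summit moved from 58.5 to 570.5 bp on the CDEIII side, between DOM34 and CIT1, which encodes mitochondrial citrate synthase. The smallest, 17 bp, was at CEN13. The shift had no common direction, with 7 summits moving toward CDEIII and 8 toward CDEI. By position, 12 of the 16 endogenous summits lay on the CDEIII side of the midpoint and 4 on the CDEI side. Of the 15 overexpressed summits, 8 lay on the CDEIII side and 7 on the CDEI side.

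The shifted CEN summits were also read against the genes beside the centromere. At CEN1 the summit was 415 bp before the start codon of TFC3, which encodes a subunit of the RNA polymerase III factor TFIIIC, with endogenous Cse4 and 65 bp before it with overexpressed Cse4. At CEN15 it was 179 and 14 bp before the start codon of RRP6, which encodes a nuclear exosome exonuclease. At CEN8 it was 442 and 160 bp before that of OSH7, an oxysterol-binding protein gene, and at CEN16 301 and 143 bp before that of CIT3. Other centromeres went the other way. At CEN7 the summit moved from 498 to 761 bp before the start codon of ERG26, a gene of ergosterol synthesis, into the ORF of EFM5, and at CEN10 it moved from 472 to 628 bp before that of AVT1. In all, 9 of 15 summits were nearer a start codon with overexpressed Cse4, and the median distance to the nearest start codon was 671 bp with endogenous and 558 bp with overexpressed Cse4. CEN summits in the 500 bp before a start codon numbered 7 with endogenous and 6 with overexpressed Cse4.

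The CEN peak was wider with overexpressed Cse4 at 9 centromeres and narrower at 6, with a median change of 83 bp and median widths of 1289 and 1338 bp. The largest gains were at CEN9, from 1156 to 2225 bp, and at CEN13, from 1047 to 1873 bp. At CEN9 the gain was on the CDEIII side, where the peak reached 520 bp from the midpoint with endogenous and 1570 bp with overexpressed Cse4. At CEN13 it was on the CDEI side, with reaches of 461 and 1205 bp. The peaks that narrowed most were CEN7, from 1510 to 1010 bp, and CEN2, from 2167 to 1685 bp. CEN5, which lies between the divergent genes IRC22 and MNN1, was the widest peak in both lists, at 2493 and 2905 bp.

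At CEN12 the endogenous peak was 968 bp wide, with a fold enrichment of 6.68, 449 fragments at the summit and a summit 54.5 bp from the midpoint. It was thus not the weakest of the endogenous list, in which CEN9 and CEN15 were lower, at 4.70 and 6.12. The endogenous peak spanned chrXII:150601-151568. The nearest overexpressed peak overlapped it but did not reach the annotated centromere. It ran over 514 bp at chrXII:151074-151587, in the space between DNM1 and YLR001C on the CDEI side, with its summit 370.5 bp from the midpoint and 248 fragments where the background was 146. Within 10000 bp of a centromere midpoint there were 5 endogenous and 89 overexpressed non-CEN summits, where the share of the genome in these windows amounts to 4.43 and 58.0 summits.

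Away from the centromeres, endogenous Cse4 peaks lay mostly inside ORFs and overexpressed Cse4 peaks mostly between them, in front of genes. The summit was inside an annotated ORF for 118 of 167 endogenous peaks, or 70.7% (95% Wilson interval 63.4 to 77.0, which like all intervals here covers counting error only). It was inside an ORF for 676 of 2188 overexpressed peaks, or 30.9% (29.0 to 32.9). ORFs hold 72.8% of all positions of the genome, so the endogenous share was close to that of the genome and the overexpressed share far below it. In the wild type endogenous list 503 of 795 non-CEN summits, or 63.3% (59.9 to 66.6), were inside an ORF.

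The spaces between ORFs differed by the direction of the genes at their sides. Spaces between divergent genes, which hold the starts of both neighbors, held 8.38% of the endogenous and 30.6% of the overexpressed summits, against 8.82% of the genome. Spaces between tandem genes, with the start of 1 neighbor, held 14.4% and 36.7%, against 13.7% of the genome. Spaces between convergent genes, which hold only gene ends, held 6.59% (3.72 to 11.4) and 1.83% (1.35 to 2.48), against 4.32% of the genome. Of the 3 kinds of space, overexpressed summits were thus above the genome share in the 2 that hold a gene start, and below it between gene ends.

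**Figure D2:**
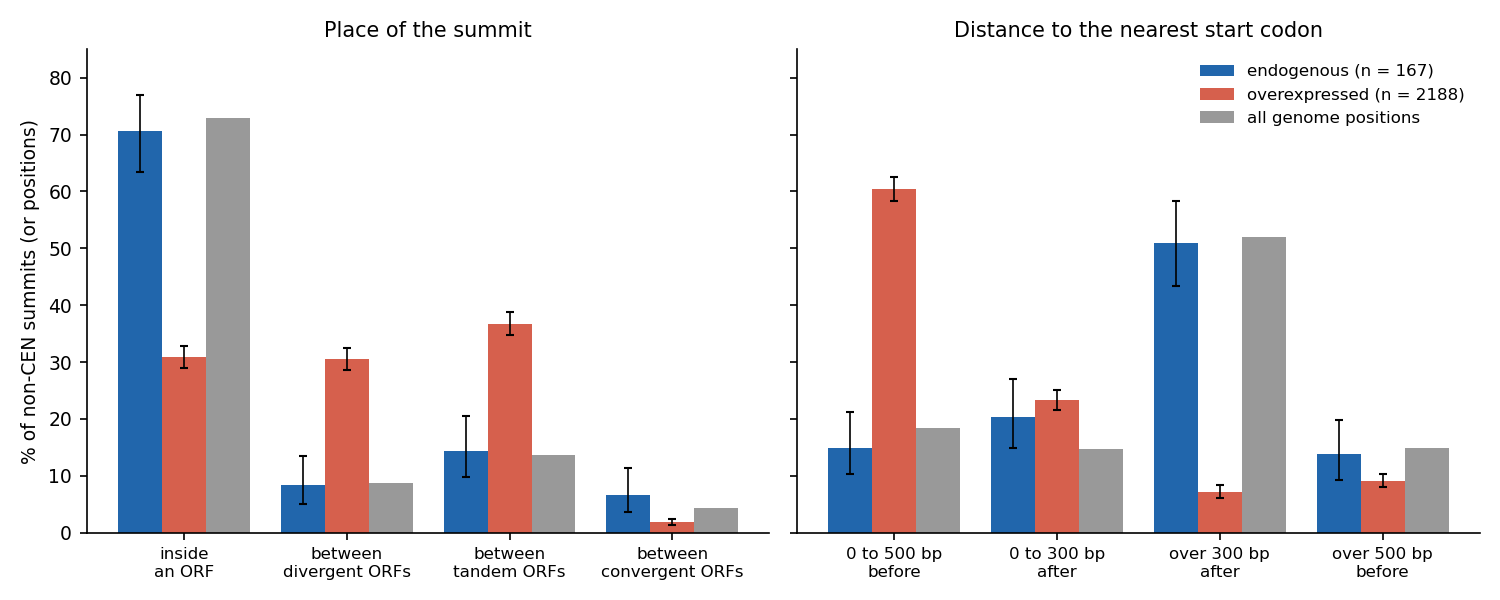
The bars give the percent of non-CEN summits with endogenous (blue, 167 peaks) and overexpressed Cse4 (red, 2188 peaks) and the percent of all genome positions (grey), by place against ORFs at left and by distance to the nearest start codon at right, with 95% Wilson intervals. The blue bars follow the grey ones within or close to their intervals, while 60.5% of the red summits lie in the 500 bp before a start codon, where 18.4% of the genome lies.

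Measured from the nearest start codon, 15.0% of the endogenous summits lay in the 500 bp before it and 20.4% in the 300 bp after it. A further 50.9% lay more than 300 bp after the start codon, inside the gene or past its end. The genome shares are 18.4%, 14.7% and 51.9%. With overexpressed Cse4, the share more than 300 bp after the start codon was 7.18%, and that in the 300 bp after it was 23.3%, close to the endogenous value. The overexpressed summits that did lie inside an ORF were also near its start. Their median position was 84 bp after the start codon, or 9.53% of the way along the ORF, and 62.9% of them were in the first 20% of the ORF. The endogenous summits inside ORFs were spread along the whole ORF, with a median 495 bp after the start codon, or 53.5% of the way, and 14.4% in the first 20%. The last 20% of the ORF held 24.6% of the endogenous and 16.3% of the overexpressed summits inside ORFs.

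The same opposition was seen when the whole extent of the peaks was laid on all 6002 genes. At 150 bp before the start codon, 35.1% of genes lay under an overexpressed peak, 3.45 times the share of the genome under one, and 0.400% lay under an endogenous peak, 0.531 times the genome share. At 500 bp after the start codon, 3.97% of genes lay under an overexpressed peak, 0.390 times the genome share, and 1.48% under an endogenous one, 1.97 times the genome share. Over the window from 1000 bp before to 1500 bp after the start codon, these were the highest and the lowest points of both lists, in opposite order.

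**Figure D3:**
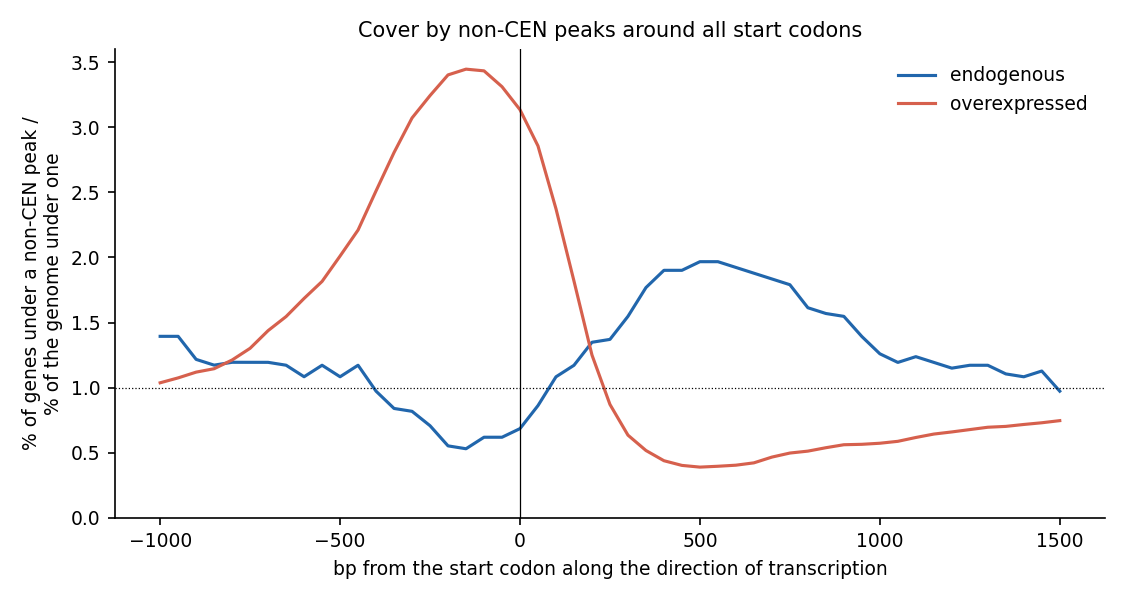
The lines give, at each distance from the start codon in bp along the direction of transcription, the percent of genes under a non-CEN peak divided by the percent of the genome under one, with endogenous Cse4 in blue and overexpressed Cse4 in red, and 1 (dotted) marks the genome share. The red line peaks at 3.45 before the start codon where the blue line is at its lowest, 0.531. The blue line peaks at 1.97 at 500 bp after the start codon, where the red line is at its lowest, 0.390.

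The share of summits inside ORFs differed with the strength of the peaks. When each list was ranked by fold enrichment and divided into 4 equal groups, the share of summits inside ORFs was 76.2% (61.5 to 86.5), 83.3%, 71.4% and 51.2% (36.5 to 65.7) from the strongest to the weakest endogenous group, and the intervals of the strongest and the weakest overlap. With overexpressed Cse4 it was 21.2% (18.0 to 24.8) in the strongest group and 41.1% (37.1 to 45.3) in the weakest. The 167 strongest overexpressed peaks, a list of the same size as the endogenous one, had 19.8% of their summits inside ORFs. When the overexpressed pileups were scaled to the depth of the endogenous library, 1769 overexpressed peaks remained above the weakest p of the endogenous list, and 28.4% of them had their summit inside an ORF.

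Genes were next sorted by whether a non-CEN peak overlapped the ORF or the 500 bp before its start codon by at least 1 bp. A peak was present at 201 of 6002 genes (3.35%) with endogenous and at 3074 genes (51.2%) with overexpressed Cse4. The peak was kept, with a peak in both lists, at 128 genes (2.13% of all genes). It was lost, with a peak in the endogenous list only, at 73 genes (1.22%), and gained, with a peak in the overexpressed list only, at 2946 genes (49.1%). Of the genes with an endogenous peak, 63.7% also had an overexpressed one, which is to be read against the 51.2% of all genes that had one. These counts depend on the choice of peaks and regions. With the ORF alone 58 genes were kept, and with the 167 strongest overexpressed peaks 20 were kept and 181 lost.

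Genes that lost their peak were mainly genes of high codon bias, a property of strongly expressed yeast genes, and 50.7% of them encode ribosomal proteins. The codon adaptation index (CAI) runs up to 1 for genes that use only the codons favored by the ribosomal protein genes, which served as its reference set. Its median was 0.752 for the lost genes, 0.287 for the kept, 0.214 for the gained and 0.217 for all genes. A peak in 1 gene can also count for a neighbor whose 500 bp before the start codon it reaches. An endogenous peak touched the ORF itself at 82.2% of the lost and 67.2% of the kept genes. The endogenous summit was before the start codon at 17.8% and 41.4%. How much of the gap in the index comes from this rule was not tested. Among the 5% of genes with the highest index were 54 of the 73 lost genes (74.0%), 38 of 125 kept genes with an index (30.4%) and 83 of 2905 gained genes (2.86%). Since ribosomal protein genes define the index, they were also left out. The median of the remaining 36 lost genes was then 0.470, that of 114 kept genes with an index 0.255 and that of all such genes 0.216. A peak was also present in the wild type endogenous list at 69 of the 73 lost genes (94.5%), 99 of the kept genes (77.3%) and 560 of the gained genes, and at 982 of all genes (16.4%).

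**Figure D4:**
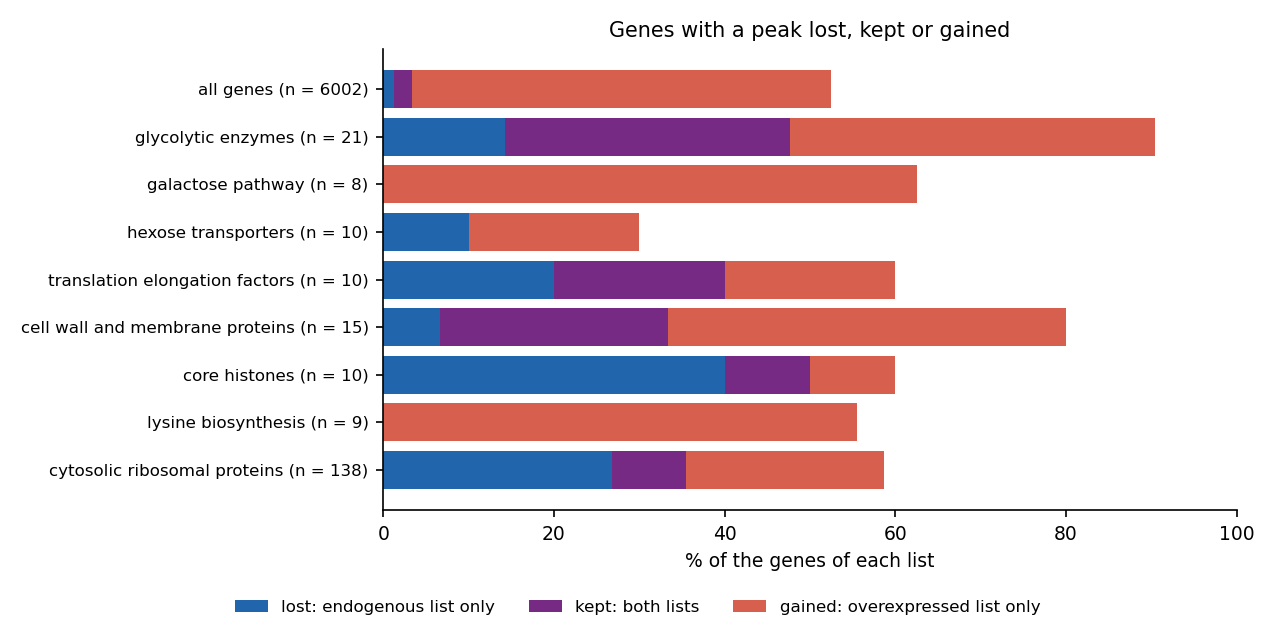
Stacked bars give the percent of all 6002 genes and of each gene list with a peak lost (blue), kept (purple) or gained (red). Blue and purple together reach 50.0% of the histone list (marked core histones, with HHO1 and HTZ1 among them) and 47.6% of the glycolytic enzymes but 3.35% of all genes, and the galactose and lysine genes show only red.

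Cytosolic ribosomal protein genes lost the endogenous peak more often than they kept it. The list was taken by the form of the gene symbol and thereby includes RPP1, which encodes a subunit of RNase P and had no peak in either list, also in the reference set of the index. Of the 138 genes, 49 (35.5%) had an endogenous peak, and of these 37 were lost and 12 kept. Of the 152 other genes with an endogenous peak, 116 also had an overexpressed one and count as kept. An overexpressed peak was present at 44 ribosomal protein genes (31.9%), below the 51.2% of all genes. Among the 49 genes, 44 endogenous summits lay inside the gene and none before the start codon. Among the 44 overexpressed ones, 36 lay before the start codon and 5 inside the gene. Many ribosomal protein genes have a near-identical copy, and reads that match both copies were not kept by the authors' alignment, so values at such pairs are uncertain.

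Genes of glycolysis had an endogenous peak more often than all genes did, at 47.6% beside 3.35%, and an overexpressed one at 76.2% beside 51.2%. Their codon adaptation index ran from 0.196 at PYK2 to 0.923 at TDH3. The list of 21 genes runs from the hexokinases to PDC1 and ADH1 of fermentation. Of these, 3 lost the peak, 7 kept it and 9 gained it (42.9%, beside 49.1% of all genes). A gene with an endogenous peak cannot count as gained, so the gained share is limited in a list where many genes have one. FBA1, which encodes fructose-bisphosphate aldolase, GPM1, phosphoglycerate mutase, and TPI1, triose phosphate isomerase, were lost, with endogenous fold enrichments of 2.04, 1.78 and 1.56. Nearly all endogenous summits, 9 of 10, lay inside the gene and none before its start codon, while 13 of 16 overexpressed summits lay before the start codon, each summit being that of the strongest peak of the gene in its list. The strongest peaks of both lists overlap at ADH1 and PDC1 and are separate peaks at CDC19, ENO1, ENO2, PGK1 and TDH3. At PGK1, phosphoglycerate kinase, the summit was 999 bp after the start codon with endogenous Cse4 (fold enrichment 1.92, pileup 151 over a background of 78.3) and 254 bp before it with overexpressed Cse4 (1.63, 312 over 191). At TDH3, the main glyceraldehyde-3-phosphate dehydrogenase, it was 1004 bp after the start codon, just past the 999 bp ORF, and 293 bp before it. The endogenous TDH3 peak also overlapped another overexpressed peak, which lay past the ORF. Its summit was 1371 bp after the start codon, with a fold enrichment of 1.66 beside 1.67 for the strongest one. At ADH1, the alcohol dehydrogenase of fermentation, it was 486 bp after the start codon with a fold enrichment of 1.88, and 189 bp before it with 1.22, and at CDC19, pyruvate kinase, 445 bp after it with 1.97 and 407 bp before it with 1.47. PFK1 and PFK2, the phosphofructokinase subunits, had no endogenous peak and gained a peak 699 and 365 bp before the start codon, with fold enrichments of 1.91 and 1.77.

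Other genes of high expression were mixed. Among 15 genes for proteins of the cell wall and plasma membrane, 1 lost the peak (6.67%, beside 1.22% of all genes), 4 kept it (26.7%, beside 2.13%) and 7 gained it (46.7%, beside 49.1%). An overexpressed peak was present at 73.3% of this list, beside 51.2% of all genes. The lost gene was CCW12, which encodes a major mannoprotein of the cell wall and had the strongest lost peak, with 229 fragments where 94.2 formed the background, and its summit 347 bp into an ORF of 402 bp. At PMA1, the plasma membrane proton pump, the summit of the strongest peak was 429 bp after the start codon with endogenous and 613 bp before it with overexpressed Cse4, with fold enrichments of 1.87 and 1.94, the latter summit being inside the neighboring ORF BRP1. Among 10 translation elongation factor genes, TEF1 and HYP2 lost the peak, with endogenous fold enrichments of 2.11 and 1.75, EFB1 and YEF3 kept it, and CAM1 and EFT2 gained it, which is 20.0% each, beside 1.22%, 2.13% and 49.1% of all genes. An overexpressed peak was present at 40% of these genes, beside 51.2% of all genes. CAM1 had the strongest overexpressed peak of the list, 2.27, with its summit 265 bp before the start codon. The endogenous peaks of TEF1, whose summit was just past the stop codon, and of HYP2 did overlap an overexpressed peak, which did not itself reach the gene. TEF1 and TEF2 are near-identical copies, as are EFT1 and EFT2, so their values are uncertain.

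The histone genes with an endogenous peak had mostly lost it. Of 10 genes, 4 lost the peak (40.0%, beside 1.22% of all genes), 1 kept it (10.0%, beside 2.13%) and 1 gained it (10.0%, beside 49.1%). An overexpressed peak was present at 20% of the histone list, beside 51.2% of all genes. HHF1 and HHF2, which encode histone H4, and HHT1 and HHT2, which encode H3, the histone that Cse4 replaces, all lost the peak, with endogenous fold enrichments of 1.86, 2.13, 1.66 and 1.91. The summit at HHF2 lay 591 bp after its start codon, within the neighboring gene KTR5, where an overexpressed peak of 2.13 overlapped it without reaching HHF2. The endogenous peaks of HHF1 and HHT2 also overlapped an overexpressed peak that did not reach the gene, by 5 and 146 bp, with overexpressed fold enrichments of 1.71 and 1.70. Of these 4 genes only HHT1 had an endogenous peak with no overexpressed peak overlapping it. HTA2, an H2A gene, kept a peak, with the summit 352 bp after the start codon of its 399 bp ORF with endogenous Cse4 and 760 bp after it, past the stop codon, with overexpressed Cse4. HHO1, the linker histone gene, gained a peak 208 bp before the start codon with a fold enrichment of 1.87. HTA1, HTB1, HTB2 and HTZ1, the gene of the variant H2A.Z, had no peak in either list. Both copies of the H3 gene and of the H4 gene are alike in sequence, which limits these values too.

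The genes of the galactose pathway and of lysine synthesis had peaks with overexpressed Cse4 only, while most hexose transporter genes had none in either list. Of 8 galactose pathway genes, 5 gained a peak and 3, GAL1, whose product is galactokinase, GAL2, the galactose permease, and PGM2, phosphoglucomutase, had none in either list. GAL7 and GAL10 shared a peak in the space between them, 502 bp before the start codon of GAL7, with a fold enrichment of 1.96. GAL4, which encodes the activator of the pathway, and GAL80, its repressor, had summits 26 and 52 bp after the start codon, with 1.66 and 1.54. Of 10 hexose transporter genes, HXT7 lost a peak (10.0%, beside 1.22% of all genes). HXT1 and HXT10 gained 1 (20.0%, beside 49.1%), and 7 had none. The gained peak of HXT1 overlapped an endogenous peak of 1.50 that lay further than 500 bp from the start codon, and the lost peak of HXT7 overlapped an overexpressed one by 2 bp. Of 9 lysine genes, 5 gained a peak and none had an endogenous one. The strongest gained peak of the genome lay 279 bp before the start codon of LYS21, a homocitrate synthase gene, with 307 fragments on a background of 120. The next, with 407 over 164, lay in the space between RTN1 and LYS4, which encodes homoaconitase. Its summit was 571 bp before the start codon of LYS4 and nearer that of RTN1, at 201 bp. With 49.1% of all genes gained, 5 of 8 and 5 of 9 are not far from the background.

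The strongest peaks without an overlapping peak in the other list were of different kinds. Of the 8 strongest endogenous ones, 7 had their summit inside an ORF, from 347 bp after the start codon at CCW12 to 682 bp after it at FBA1, and the remaining one lay between SBP1 and RPL8A. They included peaks in RPL10, YEF3, which encodes translation elongation factor 3, RPL3 and CDC19, with fold enrichments between 1.97 and 2.14. At RPL10, YEF3, RPL3 and CDC19 a separate overexpressed peak reached into the 500 bp before the start codon, with its summit 603, 474, 636 and 407 bp before it, which at RPL10 is inside the ORF of BUD20. Of the 8 strongest overexpressed peaks without an endogenous one, 7 had their summit between ORFs. These 7 included the peaks before LYS21 and between RTN1 and LYS4. The rest of the 7 lay before SSO2, which encodes a plasma membrane t-SNARE, CNL1, AFT1, the regulator of iron uptake, SPE1, ornithine decarboxylase, and MSB1. Their summits were 117, 129, 503, 214 and 79 bp before the start codon. The exception was YCH1, whose summit lay 91 bp inside the ORF with 486 fragments on a background of 207.

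In total, 89 endogenous non-CEN peaks had no overlapping overexpressed peak and 78 had one, which is 46.7% of the endogenous list and, with 80 peaks, 3.66% of the overexpressed list. The summit was inside an ORF for 74 of the 89 (83.1%, interval 74.0 to 89.5) and for 44 of the 78 (56.4%, 45.4 to 66.9). The 2 kinds were alike in strength, with median fold enrichments of 1.69 and 1.65, and the 89 reached down to 1.38 and up to 2.42. Of the 89, 77 (86.5%) overlapped a peak of the wild type endogenous list, and of the 78, 57 (73.1%) did.

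Genes with a peak in both lists were described by the place of the strongest peak of each list, which need not be overlapping peaks. The strongest peaks overlapped at 80 of the 128 kept genes and were separate at 48. With endogenous Cse4, the strongest peak had its summit inside the ORF at 67 of the 128 kept genes and before the start codon at 53. With overexpressed Cse4, it was inside at 33 and before the start codon at 85. Of the 67 genes with an endogenous summit inside the ORF, 41 had the overexpressed summit before the start codon, 20 had it inside and 6 after the stop codon. At 9 of the 41 the peaks overlapped, and at 32 they were separate peaks, so that these counts compare places and do not show a summit that moved. Of the 53 with an endogenous summit before the start codon, 39 still had it there and 10 had it inside. The genes with separate peaks, inside the ORF in the endogenous and before it in the overexpressed list, include ERG11, an ergosterol synthesis gene, with the summit 953 bp after and 435 bp before the start codon and fold enrichments of 1.90 and 2.20, ERG6, of the same pathway, with 495 bp after and 271 bp before, inside MIN4, and 1.76 and 2.01, and SSA2, a cytosolic Hsp70, with 1853 bp after and 281 bp before and 1.79 and 1.76. The overexpressed share before the start codon was 66.4% at the kept genes and 72.1% at the gained genes.

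**Figure D5:**
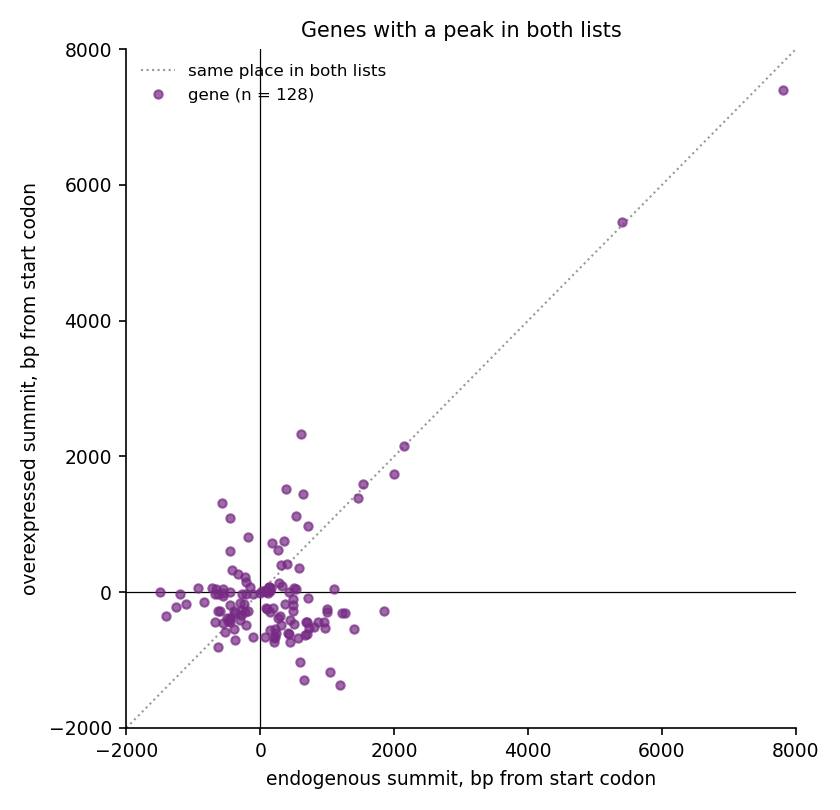
Each of the 128 points is a gene with a peak in both lists, placed by the distance of the summit of its strongest peak from the start codon in bp, with endogenous Cse4 on the horizontal and overexpressed Cse4 on the vertical axis. At 41 genes the summit was inside the ORF with endogenous and before the start codon with overexpressed Cse4, and these points lie at the lower right of the crossing of the zero lines. At 32 of the 41 these were separate peaks.

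Where an endogenous and an overexpressed peak overlapped, the summits moved both upstream and downstream. At these 78 loci the summits were a median of 241 bp apart, within 100 bp at 23 loci and more than 300 bp apart at 34. The median was 120.5 bp where the overlap had to cover at least 50% of the smaller peak, and 367 bp at a minimum -log10 q of 5. By the direction of transcription of the gene whose start codon was nearest to the endogenous summit, 34 moved upstream, or 43.6% (33.1 to 54.6), 43 moved downstream and 1 stayed in place, and at the stricter q 24.1% of the 29 loci left moved upstream. An upstream move can lead to that start codon or away from it. The overexpressed summit was nearer this same start codon at 39 loci and further from it at 38. Of the 44 loci with the endogenous summit inside an ORF, 26 kept it inside an ORF and 18 moved between ORFs. Of these 18, 8 moved toward the start of the same gene and 10 toward its stop. At 16 of the 18 the new summit was in the 500 bp before some start codon. Of all 2188 overexpressed non-CEN summits, 1512 lay between ORFs and 1323 in the 500 bp before a start codon. The 16 are thus not shown to be particular to these loci. The distance to whichever start codon was nearest in each list had a median of 396.5 bp with endogenous and 281 bp with overexpressed Cse4, and the summit was nearer a start codon with overexpressed Cse4 at 47 of 78 loci.

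The loci with the largest moves show both directions. Their peaks need to share only 1 bp, so a move is the distance between 2 summits and can join neighboring peaks. The overlap was 53 bp at ILV5, 77 and 145 bp for the pairs at PDC1, 83 bp at HYP2 and 102 bp at PAM16. It was 150 bp at PHO84, 270 bp at PTK1, 310 bp between SEC59 and BUD22, 394 bp before CAF40 and 598 bp at COQ21. At PDC1, which encodes pyruvate decarboxylase, an endogenous peak with its summit 689 bp after the start codon overlapped an overexpressed one with its summit 447 bp before it, with fold enrichments of 1.72 and 1.95. A second endogenous peak near the end of PDC1 overlapped an overexpressed peak whose summit was 1884 bp further along, before NFG1. At PHO84, the high-affinity phosphate transporter gene, the summit moved 1037 bp along the gene, past its stop codon, to 225 bp before the start codon of TUB3, an alpha-tubulin gene. At ILV5, of branched-chain amino acid synthesis, it moved 886 bp along the gene to 386 bp before the start codon of TAL1, transaldolase. At HYP2 it moved 997 bp, to 60 bp inside MCM3, which encodes a subunit of the replicative helicase. The move was 1167 bp between SEC59 and BUD22, to 30 bp before BUD22, 1057 bp at COQ21, to 45 bp inside the ORF, 936 bp before CAF40, to 181 bp before its start codon, 885 bp at PAM16, to 10 bp before its start codon, and 805 bp within PTK1. With the exception of PTK1, the new summit at these 10 loci was in the 500 bp before a start codon or in the first 100 bp of an ORF. Of all overexpressed non-CEN summits, 60.5% lay in the 500 bp before a start codon and 23.3% in the 300 bp after it. Such a place is thus common in the overexpressed list.

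Some of the shared peaks hardly moved. The peak beside YHR054C, in the repeated CUP1 region, had summits 7 and 6 bp before the start codon and fold enrichments of 2.22 and 2.24, on backgrounds of 286 and 525 fragments that were far above the others. At ACT1, the actin gene, the summits were 396 and 407 bp after the start codon, with 1.51 and 1.40. At RPL14B they were 20 and 23 bp after it, with 1.48 and 1.77. The peak at ENO2, enolase, the strongest shared endogenous peak, kept its summit inside the ORF, 385 bp after the start codon with endogenous and 277 bp after it with overexpressed Cse4, and its fold enrichment fell from 2.54 to 1.38. At GCN4, the gene of the activator of amino acid synthesis, the summit went from 181 to 722 bp after the start codon and the fold enrichment from 1.98 to 1.50. Of the 44 shared loci with an endogenous summit inside an ORF, 31 had the higher fold enrichment with endogenous Cse4, and of the 34 with a summit between ORFs, 15 did.

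Genes transcribed into other RNAs fell on different sides. Of 275 tRNA genes, 1 had an endogenous and 42 (15.3%) an overexpressed peak over them. Of 76 snoRNA genes, 23 (30.3%) had an endogenous peak, of which 18 were lost and 5 kept, and 19 (25.0%) had an overexpressed one. Of these 23, 21 lie outside the span of any ORF. Of 352 replication origins, where Cdc7 acts, 3 (0.852%) had an endogenous peak and 75 (21.3%) an overexpressed one. The shares of the genome under such peaks, 0.754% and 10.2%, are counted in single bases. An origin is a longer stretch and counts when any part of it is under a peak, so these shares cannot show an excess. Whether origins hold more peaks than other stretches of like length and place was not tested. The paper reports no significant enrichment of Cse4 at origins in its mutant ChIP-seq.

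The DNA under the summits was searched on both strands for short motifs of factors bound at yeast promoters, in windows of 201 bp centered on the summit. The windows of overexpressed summits were 60.7% A and T and those of endogenous summits 58.7%, by the median, while windows centered 100 bp before all start codons were 65.7%. Of the 6 motifs here, 4 were less frequent at overexpressed summits than in those start windows. The Reb1 motif TTACCCG was in 2.74% of the overexpressed windows, 1.2% of the endogenous and 5.67% of the start windows. The TATA motif TATAAA was in 19.7%, 11.4% and 38.1%, and a run of 7 A, AAAAAAA, in 24.5%, 17.4% and 42.4%. The Rap1 motif was in 0.0914% of the overexpressed and 0.267% of the start windows and in none of the 167 endogenous ones. The Cbf1 motif CACGTG, with 2.65%, 1.2% and 1.85%, and the Gal4 motif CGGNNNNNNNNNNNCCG, with 1.65%, 2.40% and 0.817%, were more frequent at overexpressed summits than at starts, with 2 and 4 endogenous windows behind their endogenous shares. A match is a description of letters and not a bound site.

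The motif TGACTCA of Gcn4, the activator of lysine and other amino acid genes, is given in full. The reason is that the strongest overexpressed peaks include those before LYS21 and between LYS4 and RTN1, the latter nearer RTN1. It was in 30 of all 2188 overexpressed windows, or 1.37%, beside 1.63% of the start windows and 2 of the 167 endogenous windows. It was in 4 of the 200 strongest overexpressed windows and in 1 of the 200 weakest. The 4 stretches, with the motif in capitals, lie in the windows of the peaks at KTR5 beside HHF2 (chrXIV:577428-577456, minus strand), before ADK2 (chrV:525746-525774, plus strand), between YDR341C and HXT7 (chrIV:1153810-1153838, plus strand) and before HOM3, a gene of threonine and methionine synthesis (chrV:258224-258252, minus strand).
KTR5: tacttagccagTGACTCAaaattcaaacg
ADK2: cacctttaaacTGACTCAcgattgccagt
YDR341C: aaagaaataacTGACTCAttagacacttt
HOM3: tttcaggcccaTGACTCAccttttctttc
The windows of LYS21 and LYS4 are not among these 4. The middle of the motif was 10 bp from the summit at YDR341C and between 44 and 78 bp from it at the other 3.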

How the data were processed

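Sonicated, formaldehyde-fixed chromatin of cdc7-7 cells was immunoprecipitated and sequenced, with 1 ChIP and 1 input library per condition. Per the paper's methods, the authors aligned paired reads to the S288C reference R64 with Bowtie 1.0.0, keeping reads with a single reportable position, removed duplicates with Samtools, drew the same number of alignments from each input, and ran MACS on read pairs at its default q of 0.05, each ChIP against its own input without pooling. The deposited lists give peak and summit positions, the fold enrichment (a ratio), and the -log10 p-value and -log10 q-value at the summit, all computed by the authors. Positions of ORFs, centromeres and origins came from the R64 annotation, with 6002 protein-coding genes taken by their coding span.

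Pileup and background were solved from each ratio and -log10 p, for 182 of 183 endogenous and 2201 of 2203 overexpressed peaks. The depth per library is not given in the lists and the solved background stands in for it. The procedure was tested on simulated peaks with known values. Shares carry 95% Wilson intervals. No test was run, because each condition has 1 library, and "lost" and "gained" refer to the called lists. Genes were named by rule: the 16 centromeres, the 8 strongest lost, kept and gained non-CEN peaks, the 10 shared loci with the largest moves, and the gene lists. Some items that these rules name are not reported here. Other genes given as examples were chosen after their values were seen. The members, lists and tests were chosen with earlier results of these data known. The alternatives were the peak midpoint, stricter lists, a list of equal size, the ORF alone, the summit in place of an overlap, other definitions of the CEN peak and of the overlap and, chosen after seeing the data, pileups scaled to equal depth and moves along the ORF that holds the summit. The CAI covers the 5921 genes that hold 50 or more codons of the kinds it scores. The wild type endogenous list was used for overlaps and the place of its summits, and the alignments and coverage were not used here. Python 3.11.15, numpy 2.4.6, pandas 2.3.3 and scipy 1.17.1 were used.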

Additional observations from a re-analysis of the deposited data

How the results depend on the processing

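The contrast between endogenous summits inside ORFs and overexpressed summits between them held under every alternative tried. The endogenous share inside ORFs, 70.7%, was 65.9% by the peak midpoint and 75% at a minimum -log10 q of 5, and the overexpressed share, 30.9%, was 24.9% by the midpoint, 27.2% at a minimum -log10 q of 5, 19.8% for the 167 strongest peaks, 29.2% at the lowest fold enrichment of the endogenous list and 28.4% with pileups scaled to equal depth. The counts of genes depended more on the choice. The 73 lost genes became 47 at the stricter q and 181 with the equal number of peaks, and lay between 76 and 88 otherwise. The 128 kept genes became 58 with the ORF alone, 74 by the summit, 49 at the stricter q and 20 with the equal number of peaks. The 2946 gained genes became 257 with the equal number of peaks, where the lists hold the same number of peaks, and lay between 2206 and 2512 otherwise. The endogenous CEN summit distance of 57.5 bp was 0 bp when measured to the nearest edge of the centromere, and the overexpressed one of 240 bp was 182 bp. The share of shared loci whose summit moved upstream, against transcription, 43.6%, was 24.1% at the stricter q, with 29 loci left, and 45.5% along the ORF that holds the summit, for summits inside ORFs, and the median move of 241 bp was 120.5 bp for overlaps of at least 50% of the smaller peak and 367 bp at the stricter q. The median CEN width ratio stayed between 1.05 and 1.06. No replicate could be left out, and no paired analysis was possible because each condition has 1 library.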
